A study of Arabidopsis thaliana with 24 samples.

Results

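Tau and phi glutathione transferases were followed through 24 microarray samples of Arabidopsis hypocotyls that had been given the synthetic auxin picloram or its solvent, DMSO. The members were taken as every locus of the tau class (GSTU1 to GSTU28) and of the phi class (GSTF2 to GSTF14), by family name, a choice made with earlier results of these data known. This gave 41 loci, 28 tau and 13 phi, of 30197 loci present on both chip designs. All 41 were measured in both experiments, with 1 transcript each in experiment a and 45 transcripts in all in experiment b.

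Glutathione transferases join the tripeptide glutathione to reactive or fat-soluble compounds, and the conjugates are then moved into the vacuole and broken down. The tau and phi classes are specific to plants, are numerous, lie mostly in tandem arrays, and are known for herbicide detoxification and for their rise after auxins, salicylate, wounding and oxidative stress. Some members also have roles in normal metabolism, as in the transport of anthocyanins or the synthesis of glucosinolates and camalexin.

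Experiment a used wild-type Columbia seedlings on 5 µM picloram or DMSO for 30 min or 2 h, with 3 replicates in each of 4 groups. Each replicate pooled about 400 dissected hypocotyls, and the RNA was amplified. Experiment b used afb5-5 and wild-type seedlings on 5 µM picloram or DMSO for 2 h, again 3 replicates in each of 4 groups, with about 700 hypocotyls a replicate and RNA that was not amplified. All seedlings were 5 days old, grew in 16 h of light and 8 h of dark, and were moved to treatment 2 h after lights on. The afb5-5 line carries a T-DNA insertion in AFB5, a receptor of the TIR1/AFB family through which plants perceive picloram. On the arrays of experiment a, every picloram sample was labelled with Cy3 and every DMSO sample with Cy5, and the part of dye in its picloram contrasts cannot be told apart from that of treatment. The paper describes dual-color labelling for experiment a, so a picloram and a DMSO sample can share a hybridization. Below, an array of experiment a means the channel of a single sample. Fits treat samples as unpaired, also with an array left out, unless the replicate number enters as a block. Experiment b used Cy3 throughout, so dye plays no part in its contrasts.

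The array medians ran from 868.8 to 1497.4 intensity units in experiment a and from 512.3 to 527.8 in experiment b, and 3 arrays a group limit the precision of every contrast. Of 9 early auxin genes, 4 were called higher on picloram at 30 min in experiment a, 8 at 2 h in experiment a and 8 in wild type in experiment b. Of all transcripts, 0.208%, 11.4% and 2.17% were called in these contrasts, in the same order. None of the 9 was called in afb5-5, where the median log2 change was 0.39, against 2.22 in wild type. The AFB5 transcript was not called between the genotypes. Its log2 intensities were 13.16, 12.49 and 12.90 in afb5-5 on picloram, against 12.55, 13.16 and 12.65 in wild type on picloram. On DMSO they were 13.24, 13.06 and 12.97 in afb5-5 and 13.38, 13.56 and 13.39 in wild type, so that the genotypes overlapped on picloram (0.07 on the log2 scale) and did not on DMSO (-0.35). These are whole hypocotyls, in which fewer cells of a type and less RNA per cell cannot be told apart.

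In wild-type hypocotyls of experiment b, 3 members were called higher after 2 h of picloram and none lower. They were the phi genes GSTF6 and GSTF7 and the tau gene GSTU12. The 3 are 7.317% of the members, and 2.17% of all 37118 transcripts were called in the same contrast at a false discovery rate (FDR) of 0.05 in limma, 1.71% higher and 0.458% lower. Values of single samples are log2 intensities throughout, given in the order of replicates 1, 2 and 3, and changes are picloram minus DMSO on the log2 scale.

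GSTF6 (AT1G02930), a stress and pathogen induced enzyme with a role in camalexin synthesis, stood at 10.66, 11.20 and 10.74 in wild type on picloram and at 7.60, 8.82 and 8.15 in wild type on DMSO. The change was 2.68 ± 0.37 (SE), or 6.39-fold, with an adjusted p of 0.00290 in limma. GSTF7 (AT1G02920), its neighbour on chromosome 1, stood at 10.97, 11.09 and 10.93 on picloram and at 8.48, 9.27 and 8.45 on DMSO, a change of 2.26 ± 0.30 or 4.79-fold (adjusted p = 0.00221, limma). For both genes every picloram sample lay far above every DMSO sample, and the picloram samples were the more alike. The 2 genes are close copies, and whether the probes keep them apart was not analysed here.

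GSTU12 (AT1G69920), a tau member, stood at 9.57, 10.13 and 9.88 on picloram and at 8.02, 8.24 and 7.44 on DMSO. Its change was 1.96 ± 0.27, or 3.9-fold (adjusted p = 0.00274, limma), and the groups did not overlap. All 3 calls were kept whichever single array of the contrast was left out, with adjusted p-values up to 0.0188 for GSTF6, 0.0158 for GSTF7 and 0.0195 for GSTU12.

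**Figure D1:**
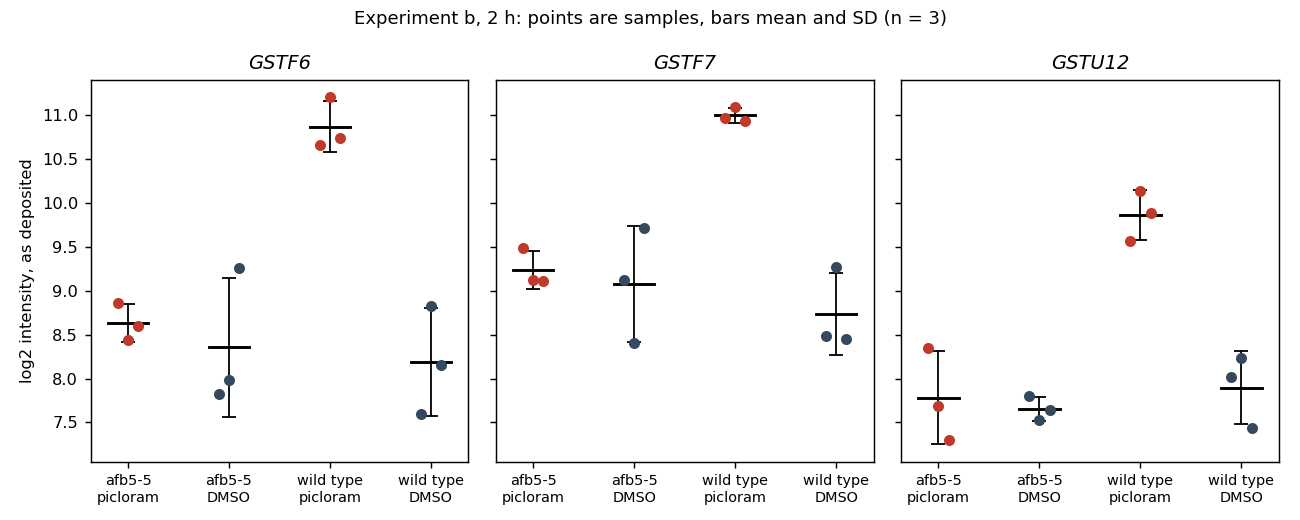
Log2 intensity of GSTF6, GSTF7 and GSTU12 in the 12 samples of experiment b, with afb5-5 left of wild type and picloram left of DMSO; points are samples, and bars are the mean and SD of 3. The wild-type picloram samples lie above every other sample of each gene, at 10.66 to 11.20 for GSTF6, 10.93 to 11.09 for GSTF7 and 9.57 to 10.13 for GSTU12.

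The other members moved little in wild type of experiment b. Changes of 35 of the 41 were smaller than 0.5, and the lowest of all was -0.37 for GSTF11. Counted by direction, 26 members were higher on picloram and 15 lower, with a median of 0.09, beside a median of -0.03 over all transcripts. Picloram samples lay wholly above DMSO samples for 5 members and wholly below for 1, against 10.8% and 10.2% of all transcripts. An unadjusted p under 0.05 was reached by 7 of the 41 members and by 5182 of the 37118 transcripts, and the members among them that were not called were GSTF2, GSTF9, GSTU6 and GSTU16.

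GSTF2 (AT4G02520) is an abundant phi enzyme that was first found by its labelling with an auxin analogue. It stood at 12.87, 13.11 and 12.86 on picloram and 12.32, 12.67 and 12.51 on DMSO in wild type, a change of 0.45 ± 0.17 (adjusted p = 0.274, limma). GSTU16 (AT1G59700) stood at 8.72, 9.29 and 9.54 on picloram and 7.72, 8.60 and 8.73 on DMSO. Its groups overlapped by the lowest picloram sample, and the change was 0.83 ± 0.34 (adjusted p = 0.309, limma). GSTU6 (AT2G29440) stood at 7.82, 7.56 and 7.93 on picloram and 7.17, 6.98 and 7.29 on DMSO, without overlap, with a change of 0.62 ± 0.24 (adjusted p = 0.276, limma). GSTF2, GSTU6 and GSTU16 all passed the test when the replicate number entered a fit of these groups alone as a block, which brought the count to 6 of the 41 members and the share of all transcripts called to 16.1%.

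In afb5-5 no member responded to picloram by the test. No transcript of the 37118 was called (0.0%), 384 reached an unadjusted p under 0.05 and none of these was a member. Changes of the members lay between -0.20 and 0.39, with a median of 0.00, and 21 were positive and 20 negative. GSTF6 stood at 8.86, 8.43 and 8.59 in afb5-5 on picloram and at 7.82, 7.98 and 9.26 in afb5-5 on DMSO, a change of 0.28 with a 95% interval of -0.54 to 1.10. GSTF7 stood at 9.48, 9.12 and 9.11 on picloram and at 9.12, 8.40 and 9.71 on DMSO, a change of 0.16 (-0.50 to 0.82). GSTU12 stood at 8.35, 7.69 and 7.30 on picloram and at 7.80, 7.53 and 7.64 on DMSO, a change of 0.12 (-0.47 to 0.72). The groups overlapped for each of these genes, and each interval ended below the change seen in wild type, which has its own error. The difference itself is tested further below.

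Set against each other on picloram, afb5-5 had less of the same 3 transcripts than wild type. GSTU12 was at 7.30 to 8.35 in afb5-5 and 9.57 to 10.13 in wild type, 4.23-fold lower (log2 difference -2.08 ± 0.27, adjusted p = 0.00349, limma). GSTF6 was at 8.43 to 8.86 in afb5-5 and 10.66 to 11.20 in wild type, 4.72-fold lower (-2.24 ± 0.37, adjusted p = 0.0139, limma). GSTF7 was at 9.11 to 9.48 in afb5-5 and 10.93 to 11.09 in wild type, 3.39-fold lower (-1.76 ± 0.30, adjusted p = 0.0162, limma). No sample of one genotype reached the other. Of all transcripts, 1.24% were called in this contrast, 0.978% lower and 0.264% higher in afb5-5. Over the members, afb5-5 samples lay wholly above wild-type samples for 4 and wholly below for 7, against 7.79% and 8.89% of all transcripts. The call of GSTU12 stayed without any single array, whereas GSTF6 and GSTF7 each missed the threshold without replicate 2 or 3 of either picloram group, at adjusted p-values up to 0.0739 and 0.0908.

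The difference between the responses of the genotypes was tested as an interaction. It came to -2.40 ± 0.53 for GSTF6 (adjusted p = 0.199, limma), -2.10 ± 0.43 for GSTF7 (0.136) and -1.84 ± 0.38 for GSTU12 (0.149). No member passed, and 0.102% of all transcripts did. These 3 were the members with an unadjusted p under 0.05 in this term, out of 1518 transcripts. On DMSO no member and no transcript differed between the genotypes (0.0% called in limma). None of the 41 reached an unadjusted p under 0.05 there, against 338 of all transcripts, and differences of the members lay between -0.71, for GSTF12, and 0.41.

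The remaining members described by sample were level in afb5-5, and each overlapped between treatments. GSTF2 stood at 12.61, 12.70 and 12.64 in afb5-5 on picloram and 12.78, 12.34 and 12.96 in afb5-5 on DMSO. GSTF9 stood at 13.65, 14.07 and 14.01 on picloram and 13.96, 14.24 and 13.99 on DMSO. GSTF10 stood at 13.04, 14.06 and 13.59 on picloram and 13.01, 13.59 and 13.62 on DMSO. The first picloram and DMSO samples of GSTF10 were the lowest of their groups. GSTF11 stood at 9.49, 9.48 and 9.74 on picloram and 9.44, 9.58 and 10.03 on DMSO. GSTU7 stood at 11.18, 11.44 and 11.18 on picloram and 11.51, 11.19 and 11.70 on DMSO. GSTU8 stood at 10.73, 10.11 and 10.74 on picloram and 10.56, 10.33 and 10.91 on DMSO. None of these changed by more than 0.20 on the log2 scale in the mean.

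The tau members of this set varied as little. GSTU16 stood at 8.32, 8.93 and 9.01 in afb5-5 on picloram and 8.11, 8.73 and 9.21 in afb5-5 on DMSO. GSTU19 stood at 13.02, 13.45 and 13.14 on picloram and 13.22, 13.28 and 13.39 on DMSO. GSTU23 stood at 9.03, 9.91 and 9.10 on picloram and 8.63, 9.27 and 9.68 on DMSO. The replicates of GSTU23 were widely spread in both groups. GSTU26 stood at 10.40, 9.95 and 10.39 on picloram and 9.91, 10.03 and 10.40 on DMSO. GSTU28 stood at 7.99, 7.09 and 7.64 on picloram and 7.95, 7.24 and 7.19 on DMSO. On DMSO, afb5-5 held GSTU27 at 10.68, 11.06 and 11.39 and GSTU4 at 5.76, 5.64 and 5.80, close to their levels in afb5-5 on picloram.

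GSTU27 (AT3G43800) ran the other way on picloram, at 10.85, 11.11 and 11.07 in afb5-5 and 10.20, 10.50 and 10.64 in wild type. The groups did not overlap, but the difference of 0.56 ± 0.21 was not called (adjusted p = 0.399, limma). GSTU4 (AT2G29460) was lower in afb5-5 on picloram, at 5.69, 5.69 and 5.83, than in wild type on picloram, at 5.95, 6.23 and 6.12, and was likewise not called (-0.36 ± 0.16, adjusted p = 0.539). It was among 9 members that lay in the dimmest 25% of the transcripts of experiment b.

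Experiment a gave a broader and more divided picture at 2 h. Picloram samples differed from DMSO samples for 10 members by the test, 3 higher and 7 lower, or 24.39% of the members beside 11.4% of all 30361 transcripts. Higher calls made up 5.53% of all transcripts and lower calls 5.84%, or 1678 and 1772. With median centring in place of quantile normalization they numbered 1867 and 1293, or 10.4% of all transcripts together. The members called were then 5 of the 41, a share nearer to that of all transcripts. Among the members, 23 were higher and 18 lower, with a median of 0.08 beside -0.01 over all transcripts. Tau members gave 2 higher and 5 lower calls, and phi members 1 higher and 2 lower. Picloram samples lay wholly above DMSO samples for 8 members and wholly below for 14, against 17.3% and 18.9% of all transcripts.

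The members called higher at 2 h in experiment a were GSTU12, GSTF2 and GSTU28. GSTU12 stood at 10.89, 11.07 and 10.52 on picloram and 8.996, 9.71 and 8.85 on DMSO, a change of 1.64 ± 0.47 or 3.13-fold (adjusted p = 0.0463, limma). GSTF2 stood at 15.35, 15.34 and 15.41 on picloram and 14.81, 14.56 and 14.68 on DMSO, a change of 0.69 ± 0.14 or 1.61-fold (adjusted p = 0.0117). GSTU28 (AT1G53680) stood at 10.59, 10.32 and 10.70 on picloram and 9.87, 9.72 and 9.87 on DMSO, a change of 0.72 ± 0.18 or 1.64-fold (adjusted p = 0.0263). No groups overlapped. GSTU12 missed the threshold without any one of the 6 arrays (adjusted p up to 0.138). GSTU28 missed it without any of the 6 except replicate 2 of picloram (up to 0.101), and GSTF2 missed it only without replicate 2 of DMSO (0.0575).

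GSTF6 and GSTF7, which rose most in experiment b, were also higher on picloram at 2 h in experiment a in every sample, but by less and without passing the test. GSTF6 stood at 13.52, 13.54 and 14.12 on picloram and 13.10, 13.22 and 13.37 on DMSO (0.50 ± 0.29, adjusted p = 0.325, limma). GSTF7 stood at 12.07, 12.19 and 13.03 on picloram and 11.82, 11.58 and 11.82 on DMSO (0.69 ± 0.48, adjusted p = 0.416, limma). Replicate 3 on picloram was the highest sample of both genes. GSTF3 (AT2G02930), a close copy of GSTF2, stood at 13.61, 13.21 and 14.29 on picloram and 12.89, 12.40 and 13.20 on DMSO (0.87 ± 0.34, adjusted p = 0.123), also without overlap. Whether the probes keep GSTF2 and GSTF3 apart was not analysed here.

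The 7 members called lower at 2 h in experiment a were led by GSTF11 (AT3G03190), a phi gene that is co-expressed with the genes of aliphatic glucosinolate synthesis. It stood at 10.86, 11.09 and 11.13 on picloram and 12.47, 12.81 and 12.27 on DMSO, a change of -1.49 ± 0.24 or 2.81-fold lower (adjusted p = 0.00360, limma). GSTU27 stood at 12.97, 12.97 and 13.06 on picloram and 14.17, 14.16 and 14.42 on DMSO, 2.38-fold lower (-1.25 ± 0.25, adjusted p = 0.00953). GSTU8 (AT3G09270) stood at 12.47, 12.31 and 12.89 on picloram and 13.70, 13.66 and 13.75 on DMSO, 2.21-fold lower (-1.15 ± 0.23, adjusted p = 0.0102). The picloram and DMSO samples of these genes were more than a log2 unit apart in the mean and did not overlap, and their calls held without any single array (adjusted p up to 0.0217, 0.0410 and 0.0490).

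The other members called lower had smaller changes. GSTU7 (AT2G29420) stood at 14.12, 14.05 and 14.49 on picloram and 15.12, 15.02 and 14.86 on DMSO (-0.78 ± 0.17, adjusted p = 0.0168, limma). GSTU19 (AT1G78380), an abundant xenobiotic-conjugating enzyme, stood at 14.58, 14.09 and 14.77 on picloram and 15.48, 14.87 and 15.51 on DMSO (-0.80 ± 0.22, adjusted p = 0.0386). GSTU23 (AT1G78320), from the same gene cluster, stood at 12.05, 12.01 and 12.11 on picloram and 12.82, 12.69 and 12.69 on DMSO (-0.68 ± 0.19, adjusted p = 0.0442). All 3 had every picloram sample below every DMSO sample. GSTF10 (AT2G30870) stood at 15.08, 14.85 and 15.30 on picloram and 15.72, 15.69 and 15.51 on DMSO (-0.56 ± 0.16, adjusted p = 0.0490). With 1 array left out, 4.78% to 8.85% of all transcripts were called in place of 11.4%. Each of these 4 calls was lost without several arrays in turn. GSTU7 lost its call without replicate 1 or 2 of either group (adjusted p up to 0.0723), and GSTU19 without replicate 1 or 3 of DMSO or 1 or 2 of picloram (up to 0.140). GSTU23 lost it without any of the 6 arrays (up to 0.136), and GSTF10 without any but replicate 3 of picloram (up to 0.173) and also in the fit with the replicate number as a block within each time point.

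GSTU26 (AT1G17190) was among the lowest by mean 2 h change without a call. In experiment a it stood at 12.94, 12.94 and 13.00 on picloram and 13.72, 13.58 and 13.61 on DMSO (-0.67 ± 0.28, adjusted p = 0.151, limma). These groups did not overlap, with an SD of 0.04 on picloram and 0.07 on DMSO. The SE also holds the spread at 30 min, where the SD was 0.43 on picloram and 0.58 on DMSO. In wild type of experiment b GSTU26 stood at 9.36, 10.27 and 9.95 on picloram and 9.73, 10.16 and 10.19 on DMSO (-0.16 ± 0.24, adjusted p = 0.780), with full overlap.

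Root hair markers moved with the 2 h picloram group of experiment a. Their summed intensity was 1107 to 6443 on picloram and 556 to 1853 on DMSO, 5 of the 6 genes were higher on picloram and 1, PRP3, was called (1.77, adjusted p = 0.0169, limma; lost without replicate 1 or 2 of either group, up to 0.0740), and 2 of the 6 lay in the dimmest 25%. In wild type of experiment b the sum was 2326 to 3190 on picloram and 2617 to 5223 on DMSO, with none called. Leaf photosynthesis markers summed to 198368 to 206963 on picloram and 215390 to 238591 on DMSO at 2 h in experiment a, and to 67814 to 80908 on picloram and 79188 to 85166 on DMSO in wild type of experiment b. None of these 6 genes was called in either, and neither was any of the 4 seed storage genes. The part of other tissues in the members' changes was not tested.

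At 30 min no member was called in experiment a, where 0.208% of all transcripts were. An unadjusted p under 0.05 was reached by 2 members, GSTF2 and GSTF9, and by 2453 transcripts in all. GSTF2 stood at 14.93, 14.70 and 14.71 on picloram and 14.24, 14.44 and 14.48 on DMSO, without overlap (0.39 ± 0.14, adjusted p = 0.459, limma). GSTF9 stood at 15.11, 15.52 and 15.62 on picloram and 15.21, 14.91 and 15.04 on DMSO, with overlap (0.36 ± 0.16, adjusted p = 0.616). Members ranged from -0.59 to 0.89, with 24 higher and 17 lower and a median of 0.13, beside -0.01 over all transcripts. GSTF2 was the only member whose picloram samples lay wholly above its DMSO samples, and none lay wholly below, against 5.81% and 5.76% of all transcripts.

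Replicates varied more at 30 min than at 2 h for several members, in both groups alike. GSTU1 stood at 11.47, 9.92 and 9.59 on picloram and 11.61, 9.68 and 9.33 on DMSO at 30 min, and GSTF14 at 10.58, 7.20 and 7.53 on picloram and 9.86, 7.44 and 7.48 on DMSO. Replicate 1 was the highest sample of both groups. For GSTU16 it was the lowest, with 7.51, 10.67 and 10.24 on picloram and 8.16, 10.53 and 9.85 on DMSO.

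The members called higher at 2 h in experiment a, and those called in experiment b, overlapped between treatments at 30 min with the exception of GSTF2. GSTU12 stood at 8.24, 8.93 and 8.71 on picloram and 7.97, 8.78 and 6.50 on DMSO (0.88 ± 0.47, adjusted p = 0.701, limma), and the third DMSO sample was far below the rest. GSTF6 stood at 12.33, 11.84 and 11.77 on picloram and 12.16, 11.74 and 10.94 on DMSO (0.36 ± 0.29). GSTF7 stood at 11.26, 9.92 and 9.34 on picloram and 10.90, 9.997 and 9.37 on DMSO (0.08 ± 0.48). Replicate 1 was the highest sample of GSTF6 and GSTF7 in both groups. GSTU28 stood at 10.12, 9.91 and 9.69 on picloram and 9.35, 9.82 and 9.46 on DMSO (0.36 ± 0.18), and GSTU4 at 8.01, 5.72 and 5.97 on picloram and 6.75, 6.08 and 5.78 on DMSO (0.36 ± 0.49).

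The members called lower on picloram than on DMSO at 2 h in experiment a differed little between treatments at 30 min. Between 30 min and 2 h the mean of GSTU8 went from 12.62 to 13.70 on DMSO and from 12.82 to 12.55 on picloram. That of GSTU27 went from 13.28 to 14.25 on DMSO and from 13.31 to 13.00 on picloram. GSTU23 went down on both, from 12.99 to 12.73 on DMSO and from 12.75 to 12.06 on picloram. GSTF11 was at 11.62, 12.17 and 11.89 on picloram and 12.24, 12.32 and 11.53 on DMSO at 30 min, GSTU27 at 12.80, 13.72 and 13.42 on picloram and 12.89, 13.65 and 13.29 on DMSO. GSTU8 was at 12.56, 13.22 and 12.69 on picloram and 12.35, 12.99 and 12.52 on DMSO. All 3 overlapped between the groups. GSTU7 was at 14.52, 14.52 and 14.20 on picloram and 14.41, 14.34 and 14.69 on DMSO, GSTU19 at 15.05, 14.96 and 14.84 on picloram and 14.90, 14.84 and 14.59 on DMSO. GSTU23 was at 13.07, 12.61 and 12.57 on picloram and 13.36, 12.72 and 12.89 on DMSO, and GSTF10 at 15.12, 15.34 and 15.50 on picloram and 15.47, 15.30 and 15.34 on DMSO. GSTU26, not called at either time, was at 12.97, 13.83 and 13.40 on picloram and 12.77, 13.70 and 13.84 on DMSO. These also overlapped between the groups. The 2 h change minus the 30 min change, in which a constant effect of dye on a transcript cancels, was -1.35 ± 0.34 for GSTF11 (adjusted p = 0.0829, limma), -1.35 ± 0.32 for GSTU8 (0.0759) and -1.29 ± 0.35 for GSTU27 (0.1004). No member passed in this term, and 0.846% of all transcripts did. With 9 members at an unadjusted p under 0.05, beside 16.4% of all transcripts, the count called became 4 with the replicate number as a block within each time point (GSTF11, GSTU8, GSTU19 and GSTU27), a fit that called 4.11% of all transcripts.

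**Figure D2:**
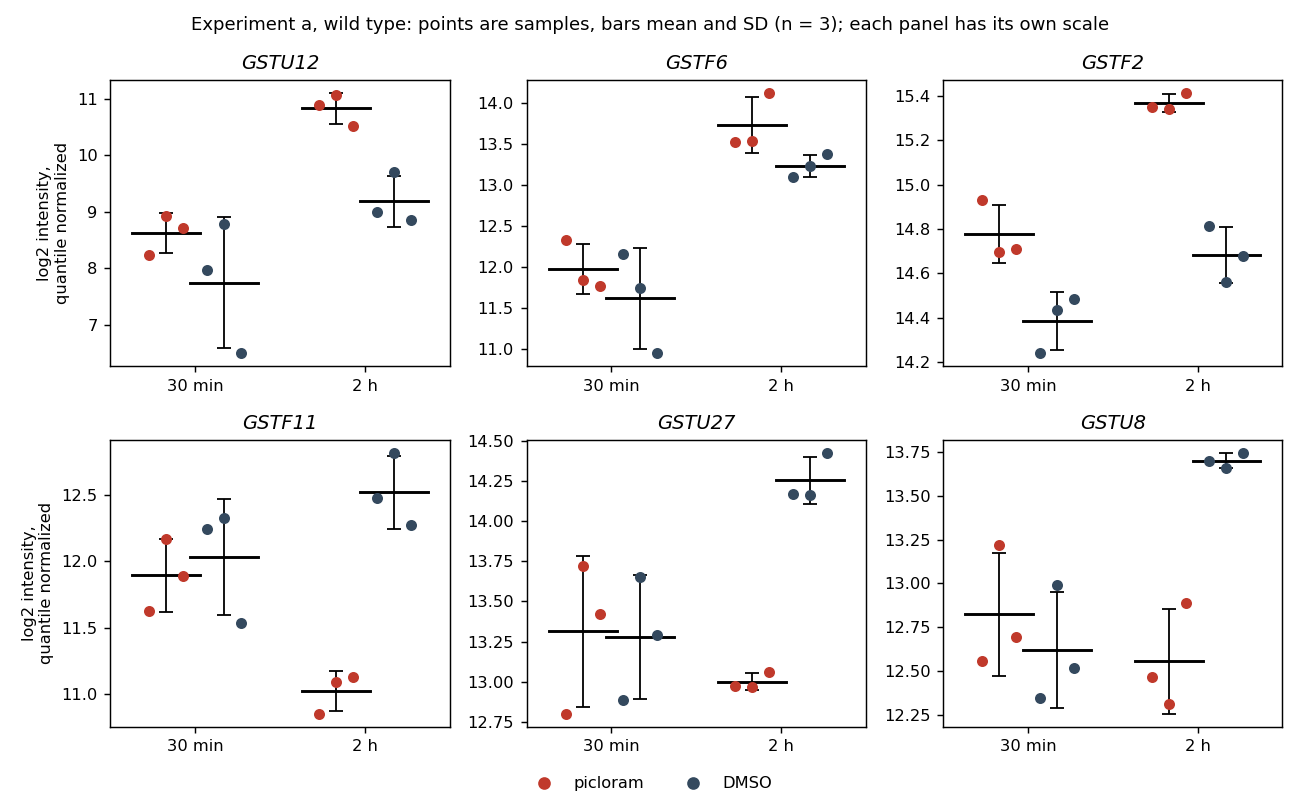
Log2 intensity of GSTU12, GSTF6, GSTF2, GSTF11, GSTU27 and GSTU8 at 30 min and 2 h in experiment a, each gene on its own scale, picloram in red left of DMSO in dark; points are samples with the mean and SD of 3. GSTF11, GSTU27 and GSTU8 overlap between treatments at 30 min and are apart at 2 h, where GSTF11 is at 10.86 to 11.13 on picloram and 12.27 to 12.81 on DMSO.

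With the wild-type samples of both experiments at 2 h fitted together, 6 picloram and 6 DMSO samples with the experiment as a term, 9 members were called, 6 higher and 3 lower. This was 21.951% of the members, beside 9.05% of the 30197 loci, 5.31% higher and 3.74% lower. GSTU12 led with 1.80 ± 0.19, or 3.49-fold (adjusted p = 0.000141, limma), followed by GSTF6 with 1.59 ± 0.36 (0.0158), GSTF7 with 1.48 ± 0.28 (0.00655) and GSTF2 with 0.57 ± 0.11 (0.00766). On the lower side GSTU27 was at -0.78 ± 0.18 (0.0183). These 5 calls held without any one of the 12 arrays.

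The other 4 calls of the joint fit were weaker. GSTU16 rose by 0.66 ± 0.19 (adjusted p = 0.0475, limma), with 11.24, 11.56 and 11.58 on picloram and 10.82, 11.06 and 11.02 on DMSO at 2 h in experiment a. GSTU4 rose by 0.58 ± 0.15 (0.0303), with 7.65, 8.10 and 7.99 on picloram and 6.96, 7.14 and 7.08 on DMSO in experiment a and 5.95, 6.23 and 6.12 on picloram and 5.89, 5.45 and 6.04 on DMSO in wild type of experiment b. GSTF9 (AT2G30860), a neighbour of GSTF10, fell by 0.35 ± 0.10 (0.0425). It stood at 15.16, 15.17 and 15.30 on picloram and 15.53, 15.52 and 15.66 on DMSO in experiment a, and at 13.79, 13.85 and 13.91 on picloram and 14.28, 14.02 and 14.28 on DMSO in wild type of experiment b, so that no groups overlapped in either. GSTF11 fell by 0.93 ± 0.25 (0.0362).

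With 1 array left out, 5.39% to 9.79% of all loci were called in place of 9.05%. Each of these 4 calls was lost without several arrays in turn. GSTF11 missed the threshold without any 2 h array of experiment a and without DMSO replicate 2 or 3 or picloram replicate 1 of wild type in experiment b (adjusted p up to 0.0895). GSTU4 missed it without any 2 h array of experiment a and without DMSO or picloram replicate 2 of experiment b (up to 0.0762). GSTU16 missed it without any of the 12 arrays but DMSO replicate 3 and picloram replicate 1 of experiment b (up to 0.102), and GSTF9 without any but DMSO replicate 2 of experiment b (up to 0.0949). The call of GSTF9 was also lost with the replicate number as a block (0.0525), with median centring and with no normalization.

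The direction at 2 h was the same in both experiments for 26 of the 41 members, 17 higher and 9 lower. The same count over all loci was not made here. Changes larger than 1 were found for 3 members in wild type of experiment b, 4 at 2 h in experiment a and none in afb5-5. The sizes differed for some. In a comparison added after the data had been seen, the wild-type response in experiment b minus that in experiment a was 2.18 ± 0.40 for GSTF6 (adjusted p = 0.0150, limma), 1.57 ± 0.38 for GSTF7 (0.0404) and 1.19 ± 0.27 for GSTU8 (0.0344). These were the 3 members called, beside 4.26% of all loci, 2.54% higher and 1.71% lower in experiment b. GSTF6 kept its call without any one of the 12 arrays. GSTF7 lost it without 10 of the 12 in turn, all but picloram replicate 3 of experiment a and DMSO replicate 2 of experiment b (up to 0.1003), and GSTU8 without 9, all but picloram replicate 3 of experiment a and DMSO replicate 3 and picloram replicate 1 of experiment b (up to 0.0978). Hybridization site, RNA extraction, chip design, RNA amplification, dye layout and the number of hypocotyls pooled all differed between the experiments and cannot be told apart. In this comparison experiment a alone was quantile normalized.

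GSTU8 was level in wild type of experiment b, with 10.30, 10.82 and 10.60 on picloram and 10.28, 10.58 and 10.73 on DMSO (0.04 ± 0.22). GSTF11 and GSTU27 leaned down there too. GSTF11 stood at 8.58, 9.77 and 9.57 on picloram and 9.31, 9.96 and 9.76 on DMSO (-0.37 ± 0.29, adjusted p = 0.577, limma), and GSTU27 at 10.20, 10.50 and 10.64 on picloram and 10.48, 10.72 and 11.08 on DMSO (-0.31 ± 0.21, adjusted p = 0.512). Both sets overlapped. The other members called lower in experiment a overlapped between treatments in wild type of experiment b. GSTU7 stood at 11.30, 11.26 and 11.30 on picloram and 11.18, 11.29 and 11.65 on DMSO, a change of -0.09 with a 95% interval of -0.46 to 0.28. GSTU19 stood at 13.31, 13.07 and 13.26 on picloram and 13.18, 13.00 and 13.48 on DMSO (0.00, -0.36 to 0.35). The interval of each reached less far down than the change in experiment a, which has its own error. Neither was called in the direct comparison of the experiments. GSTU23 stood at 9.37, 9.24 and 9.46 on picloram and 9.28, 8.998 and 9.46 on DMSO (0.11, -0.50 to 0.72). GSTF10 stood at 13.74, 13.43 and 13.87 on picloram and 13.67, 13.25 and 13.77 on DMSO (0.12, -0.46 to 0.69). GSTU28, called higher in experiment a, stood at 7.36, 7.58 and 7.35 on picloram and 7.48, 7.49 and 7.21 on DMSO in wild type of experiment b, a change of 0.03 ± 0.25.

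**Figure D3:**
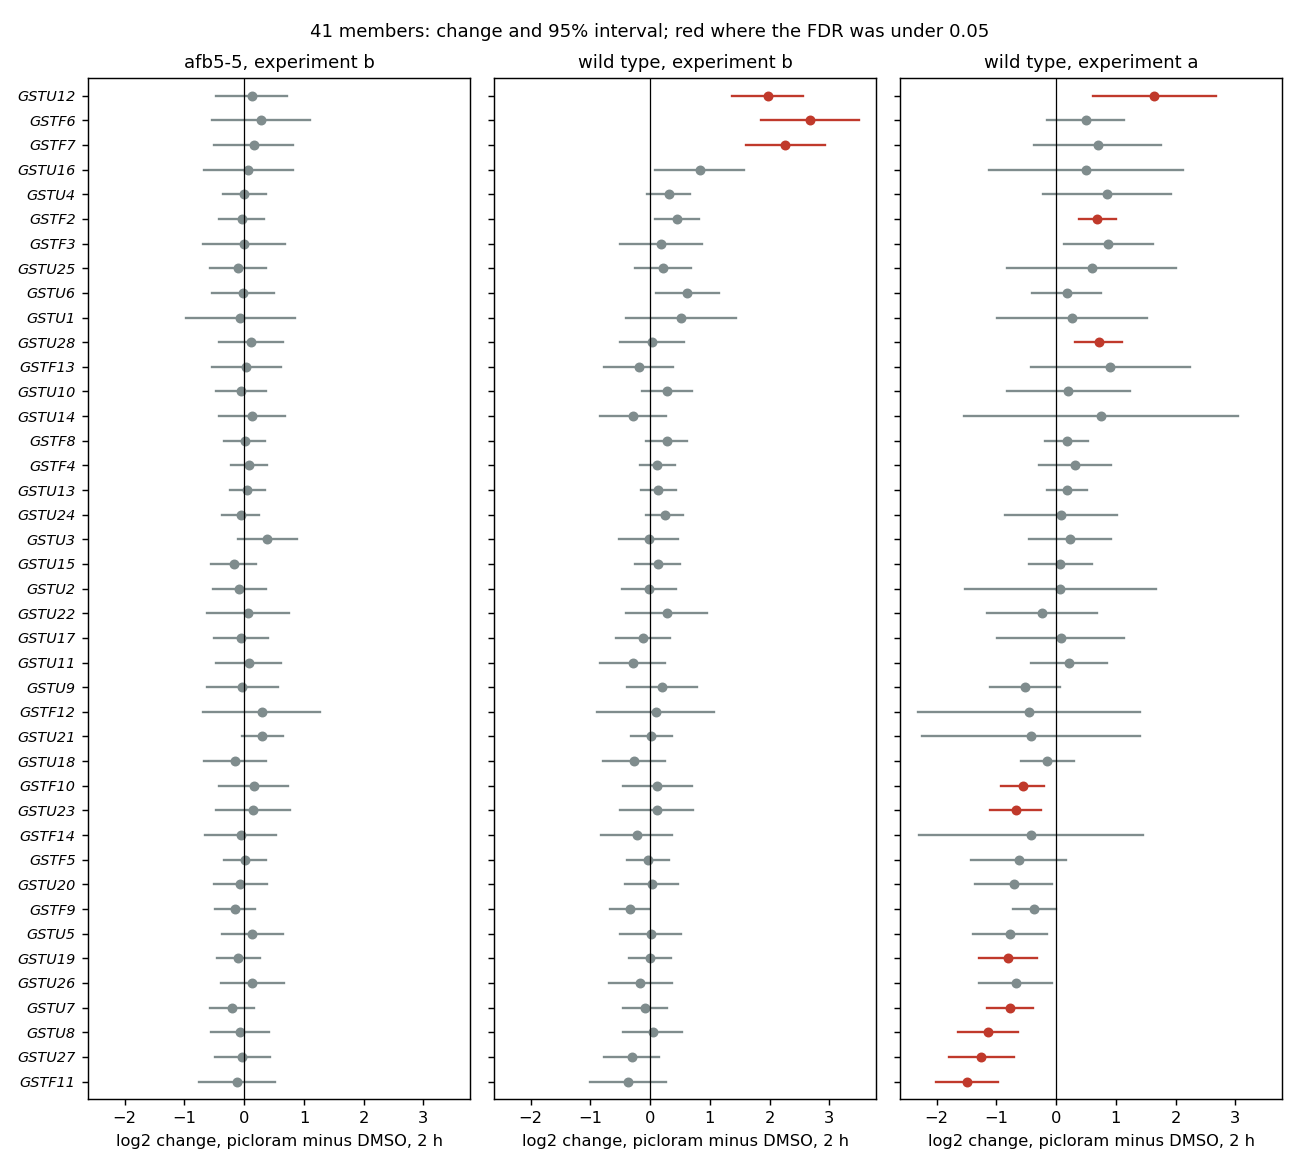
Log2 change at 2 h, picloram minus DMSO, with 95% intervals, of the 41 members in afb5-5 (left) and wild type (middle) of experiment b and in wild type of experiment a (right); red marks an adjusted p under 0.05 and members run from the highest mean wild-type change at the top. No member is red in afb5-5, 3 are in wild type of experiment b, all higher, and 10 are in experiment a, 3 higher and 7 lower.

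Levels of the members at the 2 times were also set against each other without picloram. On DMSO in experiment a, where both times carry the same dye, 35 of the 41 members were higher at 2 h than at 30 min and 6 lower. Their median was 0.52 and that of all transcripts -0.02. Samples at 2 h lay wholly above those at 30 min for 20 members and wholly below for 1, against 11.2% and 12.6% of all transcripts. The test called 1 member, GSTF6, and 0.356% of all transcripts, 0.25% higher and 0.105% lower, while 17 of the 41 members and 16.5% of all transcripts reached an unadjusted p under 0.05. GSTF6 stood at 13.10, 13.22 and 13.37 on DMSO at 2 h and 12.16, 11.74 and 10.94 at 30 min, a change of 1.62 ± 0.29 (adjusted p = 0.0494, limma). That call was lost without any one of the 6 arrays (up to 0.189), with the replicate number as a block (0.0735), with other scalings and in a fit of these groups alone. GSTU12, at 8.996, 9.71 and 8.85 at 2 h and 7.97, 8.78 and 6.50 at 30 min, moved by 1.43 ± 0.47, and GSTF7, at 11.82, 11.58 and 11.82 at 2 h and 10.90, 9.997 and 9.37 at 30 min, by 1.65 ± 0.48 without a call (adjusted p of 0.181 and 0.152).

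On picloram, in a comparison added after the data had been seen, 26 members were higher at 2 h than at 30 min and 15 lower, with a median of 0.27 beside -0.01 over all transcripts. The 5 members called were all higher, against 5.87% of all transcripts called, 2.55% higher and 3.33% lower. Samples at 2 h lay wholly above those at 30 min for 10 members and wholly below for 3, against 12.5% and 14.8% of all transcripts. They were GSTF7 (2.26 ± 0.48, adjusted p = 0.0224, limma), GSTU12 (2.20 ± 0.47, 0.0224), GSTF3 (1.84 ± 0.34, 0.0122), GSTF6 (1.75 ± 0.29, 0.00836) and GSTF2 (0.59 ± 0.14, 0.0344). GSTF6 stood at 13.52, 13.54 and 14.12 at 2 h and 12.33, 11.84 and 11.77 at 30 min, and GSTF3 at 13.61, 13.21 and 14.29 at 2 h and 12.46, 11.84 and 11.31 at 30 min. Both kept their calls without any single array. GSTU12 lost it without any one of the 6 (up to 0.0787), and GSTF2 and GSTF7 without any but replicate 1 at 30 min (up to 0.104 and 0.0815). GSTU8 and GSTU27, which moved up by 1.08 and 0.98 over time on DMSO without a call, moved by -0.27 and -0.31 on picloram.

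**Figure D4:**
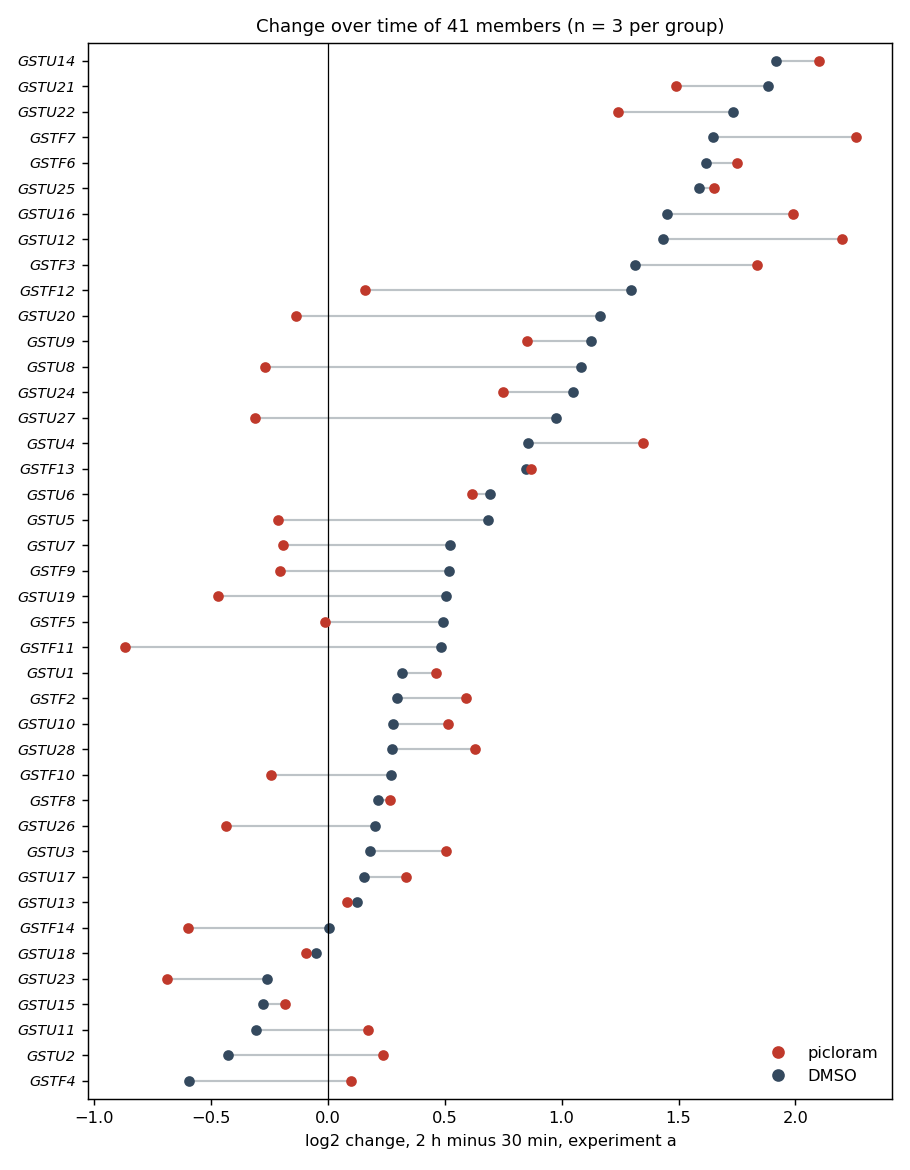
Log2 change over time in experiment a, 2 h minus 30 min, of the 41 members on picloram (red) and on DMSO (dark). Of the dark points 35 lie above 0, and of the red points 26 do.

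Most members lie in tandem. Allowing up to 4 other genes between neighbours, 29 of the 41 fell into 9 clusters of 2 to 7 members and 12 stood alone. Changes were uneven within clusters in wild type of experiment b. In the GSTF7-GSTF6-GSTF5-GSTF4 cluster the first pair rose, whereas GSTF5 changed by -0.04 ± 0.16 and GSTF4 by 0.12 ± 0.14. GSTU11, next to GSTU12, changed by -0.29 ± 0.25. It was dim in both experiments.

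The cluster GSTU23-GSTU22-GSTU21-GSTU20-GSTU19 had all 5 members lower on picloram at 2 h in experiment a, by 0.24 to 0.80 on the log2 scale, of which GSTU19 and GSTU23 were called. In wild type of experiment b its changes were 0.00 to 0.27 in size and none was called. GSTU20, which is co-expressed with glucosinolate genes and binds the jasmonate-linked enzyme FIN219, was at -0.71 ± 0.29 in experiment a (adjusted p = 0.153, limma) and 0.02 ± 0.20 in wild type of experiment b. Its groups did not overlap at 2 h in experiment a, at 13.78 to 14.12 on picloram and 14.60 to 14.74 on DMSO. The SD on DMSO was 0.08 at 2 h and 0.67 at 30 min, and the SE holds both. Of the 7-member cluster GSTU1 to GSTU7, only GSTU7 was called at 2 h in experiment a, downward, and 5 of the 7 were higher on picloram.

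**Figure D5:**
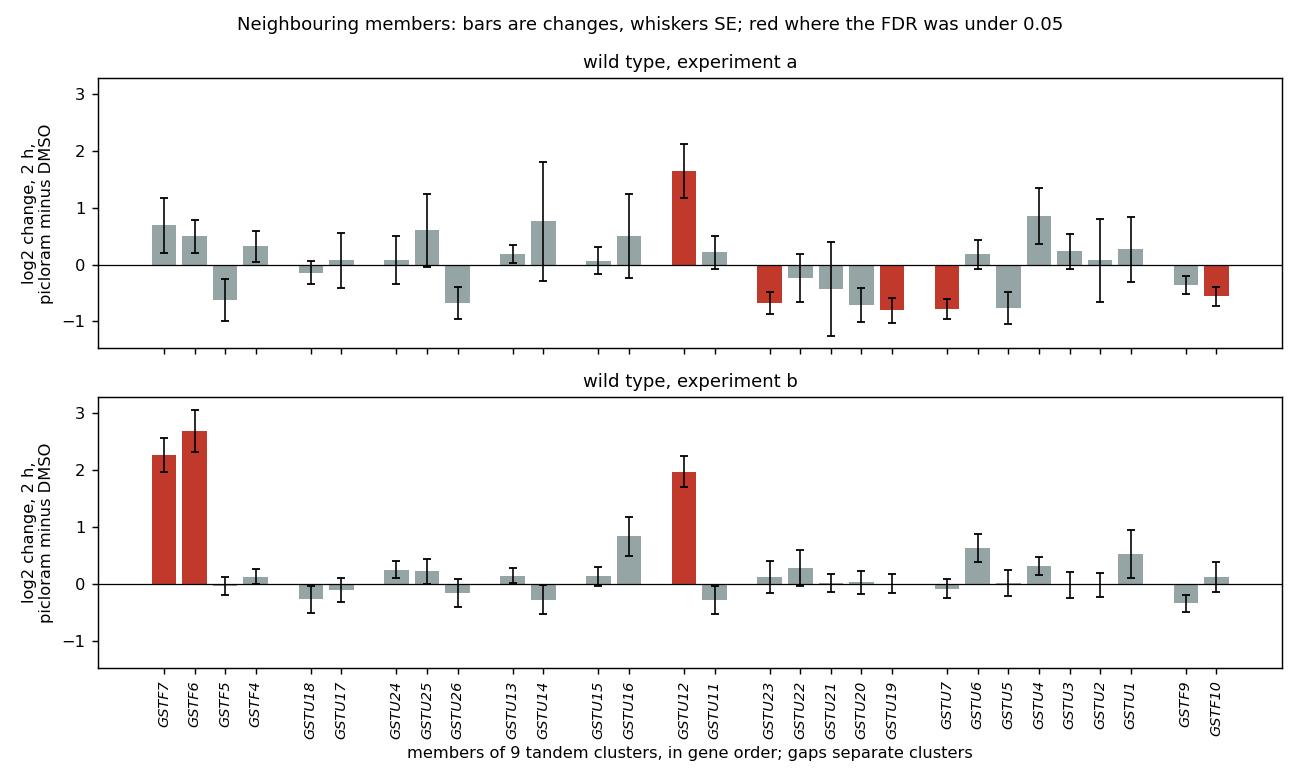
Log2 change at 2 h in wild type, picloram minus DMSO, with its SE, of the 29 members in 9 tandem clusters, in experiment a (top) and experiment b (bottom). In the first cluster GSTF6 and GSTF7 stand at 2.68 and 2.26 in experiment b beside GSTF5 at -0.04 and GSTF4 at 0.12.

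Several members with other known roles were not called in any comparison. GSTF8, a hydrogen peroxide and salicylate induced phi enzyme, changed by 0.17 ± 0.16 at 2 h in experiment a and 0.28 ± 0.16 in wild type of experiment b. GSTF12, which is needed to carry anthocyanins to the vacuole, changed by -0.46 ± 0.85 and 0.09 ± 0.45. GSTU24 and GSTU25, known for trinitrotoluene detoxification, changed by 0.08 ± 0.43 and 0.60 ± 0.64 at 2 h in experiment a and by 0.25 ± 0.14 and 0.22 ± 0.22 in experiment b. GSTU17, known from phytochrome A signalling, changed by 0.08 ± 0.49 and -0.11 ± 0.21. For several of these the SE in experiment a is so large that a change of 1 log2 unit would not have been called. That SE pools the spread of all groups of the experiment. For GSTF12 the SD was 1.75 on picloram and 1.66 on DMSO at 30 min, but 0.16 and 0.19 at 2 h, where the groups did not overlap. For GSTU25 it was 0.61 on picloram and 0.90 on DMSO at 2 h itself. In all, 15 members were called in at least 1 of the 10 comparisons of the design and 26 in none, with GSTF3 called only in the added comparison over time on picloram. The second transcript forms of GSTF9 and GSTU9 and those of GSTF4 in experiment b were not called either.

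Genes that supply glutathione or handle its conjugates were taken from a list of 15. In the joint 2 h fit 4 were called higher and none lower, among them ABCC3, a vacuolar transporter of glutathione conjugates (1.18 ± 0.23, adjusted p = 0.00776, limma), and GGT1, a gamma-glutamyl transpeptidase (0.93 ± 0.16, 0.00423). Both held without any single array. That fit called 5.31% of all loci higher and 3.74% lower. The median of the list was 0.02, beside -0.02 over all loci, and the genes of glutathione synthesis itself were not called. Of 12 transferases of other classes (theta, zeta, lambda, DHAR and TCHQD), 1 was called, DHAR1, which recycles ascorbate, at -0.39 ± 0.11 (0.0437) in the joint fit, and that call was lost without any of the 12 arrays but picloram replicate 3 of experiment a and picloram replicate 2 of experiment b (up to 0.103).

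A list of 17 xenobiotic and oxylipin response genes gave 4 higher calls and 1 lower in wild type of experiment b, with a median of 0.08. Over all transcripts 1.71% were called higher and 0.458% lower there, with a median of -0.03. CYP81D8, a cytochrome P450 that is induced by many foreign chemicals, rose by 2.03 ± 0.18 in wild type of experiment b (adjusted p = 0.000183, limma) and by 2.00 ± 0.37 at 2 h in experiment a (0.00709). In afb5-5 it changed by 0.21 ± 0.18, and the response in afb5-5 minus that in wild type was -1.81 ± 0.25 (0.0205), past the threshold but lost without picloram replicate 1 or 3 of either genotype or DMSO replicate 2 of afb5-5 (up to 0.1001) and with the replicate number as a block (0.0537). The efflux carrier DTX1 rose by 1.31 ± 0.13 in wild type of experiment b (0.000434), and the stress-induced glucosyltransferases UGT73B4 and UGT73B5 rose by 1.28 ± 0.24 (0.0164) and 0.84 ± 0.12 (0.00426). DOGT1, a glucosyltransferase of deoxynivalenol and brassinosteroids, fell by 1.11 ± 0.21 (0.0185). UGT73B4 missed the threshold without DMSO replicate 1 or 3 or picloram replicate 2 or 3 (up to 0.0845), and DOGT1 without any array but DMSO replicate 1 (up to 0.0942). On picloram, CYP81D8, DTX1 and UGT73B5 were lower in afb5-5 than in wild type by 2.03, 0.89 and 0.85 on the log2 scale. The alkenal and oxylipin reductases of the list and its TGA factors were not called.

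Glucosinolate genes are the set that GSTF11 and GSTU20 are co-expressed with. Of 18, 14 were lower on picloram and 4 higher at 2 h in experiment a, with a median of -0.66, and 6 were called lower and none higher. Over all transcripts the median was -0.01, and 5.84% were called lower and 5.53% higher. The 6 included the regulators MYB28 (-1.58 ± 0.17, adjusted p = 0.000530, limma), MYB29 (-1.96 ± 0.32, 0.00396) and MYB34 (-1.48 ± 0.17, 0.000649) and the aliphatic pathway enzyme CYP79F2 (-1.52 ± 0.24, 0.00333). In wild type of experiment b, 17 of the 18 were lower, with a median of -0.40, and 1 was called, CYP79B3 of the indolic branch (-0.66 ± 0.15, 0.0477), a call lost without any one of the 6 arrays. The median of all transcripts was -0.03 there, and 0.458% were called lower. The joint fit called 9 lower and none higher, beside 3.74% lower and 5.31% higher of all loci. CYP79F2 was at -0.05 ± 0.20 in wild type of experiment b.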

How the data were processed

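Arrays were NimbleGen expression chips. Per the paper's methods the authors processed them by RMA with the oligo package, and the deposited values are linear intensities per transcript, 1 column a sample. In experiment a the array medians of the deposited intensities differed by up to 1.724-fold, so log2 intensities were quantile normalized here; in experiment b they differed by 1.03-fold and log2 of the deposited intensity was used unchanged. No count or background flag was used, and transcripts in the dimmest 25% were marked.

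Group means were fitted with lmFit and eBayes in limma 3.58.1 (R 4.3.3), per experiment over 12 samples, with Benjamini-Hochberg adjustment over all transcripts and calls at FDR 0.05. The joint fit used loci on both chips, the lowest splice form and the experiment as a term. Tables were made with Python 3.11.15, numpy 2.4.6, pandas 2.3.3 and scipy 1.17.1, figures with matplotlib 3.10.9. The fits were tested on simulated data with known changes. The simulated samples were drawn independently, so that test did not cover samples that deviate together or a dye that follows treatment.

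Members called in any of 10 comparisons, with the 5 highest and 5 lowest mean 2 h changes, are given in every sample; others by range, count or known role, and list genes where called. Members and lists were chosen with earlier results of these data known. Lists of early auxin, glutathione, other transferase, xenobiotic, glucosinolate, camalexin, flavonoid, jasmonate and salicylate genes and of root hair, leaf and seed markers were described by counts and medians. Same-numbered picloram and DMSO samples deviated together in experiment a (correlations 0.37 to 0.60 at 30 min, 0.34 to 0.55 at 2 h) and in wild type of experiment b (0.38 to 0.67), but little in afb5-5 (0.04 to 0.18). Between times same-numbered samples did not. Between genotypes their correlations were 0.04 to 0.69 on DMSO, where other pairs gave -0.74 to 0.45, and -0.70 to 0.20 on picloram. The files of the 2 experiments rest on different annotation builds, so coordinates are not given; gene order came from the RefSeq annotation. Promoter and protein sequences were not analysed here. Alternatives were other normalizations, omission of dim transcripts, means over splice forms, a variance trend with a robust fit, fits of the compared groups alone, replicate blocks, FDR 0.01 and each sample left out. The 2 comparisons over time on picloram and between experiments were added after the data had been seen.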

Additional observations from a re-analysis of the deposited data

Results flagged for a closer look

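The response of 3 members differed between the experiments by the treatment-by-experiment term of a limma fit: GSTF6 by 2.18 (adjusted p = 0.0150), GSTF7 by 1.57 (0.0404) and GSTU8 by 1.19 (0.0344), each in experiment b minus experiment a. Among the list genes, the response in afb5-5 minus that in wild type was past the threshold for CYP81D8 at -1.81 (adjusted p = 0.0205, limma; 0.0537 with the replicate block), for the auxin gene GH3.1 at -2.59 (0.00854) and for the auxin gene IAA5 at -2.63 (0.00520). In experiment a the 2 h response minus the 30 min response was past it for GH3.1 at 2.50 (0.0414) and for MYB34, a regulator of indolic glucosinolates, at -1.29 (0.0364). The call of MYB34 was lost without any of the 12 arrays but picloram replicate 1 at 30 min (adjusted p up to 0.115), and that of GH3.1 in experiment a without any but DMSO replicate 2 at 30 min (up to 0.122). With the replicate number as a block across both times these were at 0.0634 and 0.0586, and with a block within each time point at 0.0279 and 0.0296.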

How the results depend on the processing

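No member call turned its direction under any alternative, and the 76 alternatives of the members' medians moved none beyond the spread. Over 34 member calls and 532 alternatives, 362 kept the call and 170 lost it; over 117 calls of list genes and 1885 alternatives, 1529 kept it and 356 lost it. Percentages in parentheses below are shares of all transcripts or loci called under the same setting. At 2 h in experiment a the 10 members called (11.4%) became 2 at FDR 0.01 (3.57%) and 5 with median centring (10.4%). They became 4 with no normalization (5.08%) and 4 to 7 with 1 array left out (4.78% to 8.85%). The 2 h minus 30 min term had 0 (0.846%), and 4 with the replicate number as a block within each time point (4.11%). It had 4 with the variance trend and robust fit (3.81%), and 0 to 1 with 1 array left out (0.0692% to 1.05%). Over time on DMSO, 1 member (0.356%) became 0 at FDR 0.01 (0.00329%), 0 with no normalization (0.115%) and 0 with the replicate block (0.273%). It became 0 with only the groups compared (0.00329%), 4 with the variance trend and robust fit (1.25%), and 0 to 1 with 1 array left out (0.00329% to 0.603%). Over time on picloram, 5 (5.87%) became 1 at FDR 0.01 (1.26%) and 8 without dim transcripts (9.5%). They became 2 with only the groups compared (2.18%) and 2 to 7 with 1 array left out (1.9% to 4.79%). In wild type of experiment b, 3 became 6 with the replicate block and only these groups, where the share of all transcripts called went to 16.1% in place of 2.17%. Between genotypes on picloram, 3 (1.24%) became 1 at FDR 0.01 (0.431%) and 1 to 3 with 1 array left out (0.423% to 0.808%). In the joint fit 9 (9.05%) became 3 at FDR 0.01 (3.09%) and 5 to 7 with 1 array left out (5.39% to 9.79%). Between the experiments, 3 (4.26%) became 5 without dim transcripts (7.0%) and 1 to 4 with 1 array left out (1.12% to 4.7%). The replicate block changed no other count by over 1.5 times. The cause of these moves was not tested, except that a stricter threshold calls fewer by construction. Scaling also moved the split of all calls in experiment a: at 2 h 1678 higher and 1772 lower became 1867 and 1293 with median centring, and at 30 min 47 and 16 became 38 and 3 with median centring and 42 and 7 with no normalization. The 2 h minus 30 min term went from 126 higher and 131 lower to 128 and 45 with median centring, and time on DMSO from 76 and 32 to 16 and 19 with no normalization. Means over splice forms do not apply to experiment a, a block within time point could not be fitted between times, and only the groups compared enter the joint fit in any case.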

Other observations

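Of 7 camalexin genes, the pathway in which GSTF6 has a role, the regulator WRKY33 rose by 0.84 ± 0.15 in wild type of experiment b (adjusted p = 0.0111, limma; lost without picloram replicate 2 or 3) and was at 0.17 ± 0.50 at 2 h in experiment a. The joint fit called WRKY33 higher, a call lost without any array but replicate 3 of either group of experiment a (up to 0.0931) and with the replicate block (0.0570), and CYP79B2, CYP79B3 and GGP1 lower, and the last 3, which also serve glucosinolate synthesis, held without any single array. Over all loci 5.31% were called higher and 3.74% lower in the joint fit. The median of the list was -0.28.

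Of 11 flavonoid and anthocyanin genes, the list to which GSTF12 is tied by its role, the regulator TT8 rose at 2 h in experiment a (2.27 ± 0.47, adjusted p = 0.0124, limma) while 10 of the 11 were lower, with a median of -0.37 beside -0.01 over all transcripts. TT8 was at -0.33 ± 0.14 in wild type of experiment b (adjusted p = 0.320). The regulator PAP1 fell by 0.89 ± 0.18 in the joint fit (0.00834).

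Of 10 wound and jasmonate genes, JAZ1 rose by 1.24 ± 0.24 in wild type of experiment b (adjusted p = 0.0183, limma), and JAZ7 fell by 1.94 ± 0.54 at 2 h in experiment a (0.0421), where it lost its call without any array but DMSO replicate 3 (up to 0.147). JAZ1 lost its call without DMSO replicate 1 or 3 or picloram replicate 1 or 2 (up to 0.0925). None of 6 salicylic acid and defence genes was called at 2 h in either experiment, and 1 of them reached an unadjusted p under 0.05 in experiment a.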
